A study of Mus musculus with 2 samples.

Results

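Nuclear receptors that sense fats, bile acids, sterols and foreign compounds were examined in colon epithelial cells incubated with or without the cytokine MIF. The set was fixed by name as 10 genes: the fatty acid receptors Ppara, Pparg and Ppard, their shared dimerisation partner Rxra, the oxysterol receptor Nr1h3 (LXR alpha), the bile acid receptor Nr1h4 (FXR), the xenobiotic receptor Nr1i2 (PXR), the crypt receptor Nr5a2 (LRH-1), the mitochondrial regulator Esrra (ERR alpha) and the repressor Nr0b2 (SHP). Every probe set carrying one of these names as its single gene symbol was taken. The table of 15340 probe sets held 12 such probe sets, for 8 of the 10 genes, among 8721 named genes in all. Ppard and Nr0b2 had no such probe set and were not analysed here.

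The cells came from colon epithelium of C57BL/6 mice, an inbred strain, aged 7 weeks. They were incubated with MIF (here read as macrophage migration inhibitory factor, a cytokine) or with PBS, the salt solution that served as the control. There was 1 Affymetrix array for each incubation. The sources used here do not give the dose, the duration, the number of animals or how the epithelium was separated. With 1 array per condition there was no spread between samples and no test, so all differences describe these 2 RNA preparations.

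Nuclear receptors are transcription factors that switch genes on or off when a small molecule binds them. PPAR, LXR, FXR and PXR proteins bind DNA as dimers with an RXR, whereas LRH-1 and ERR alpha can bind as single molecules and have no firmly established circulating ligand. In the intestine PPARs control the burning and storage of fatty acids, FXR limits bile acid load, LXRs export cholesterol and PXR raises detoxification. SHP lacks a DNA-binding domain and represses other receptors.

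Values are signals of the authors' table on a linear scale in arbitrary units, and each difference is the log2 signal under MIF less that under PBS. A signal floor of 232, the 40th percentile of all signals, was set, and a gene under it on both arrays was not assessed. Of the 8 receptors in the table, 6 lay above the floor on both arrays and 2, Ppara and Nr1h3, lay under it on both. Over 5839 assessed genes the median log2 difference was -0.01, with an SD of 0.19. Across 1800 genes with a second probe set, differences of separate probe sets varied with an SD of 0.13 on the log2 scale, which includes any difference in the transcripts they detect and leaves out the variation from culture to culture.

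The identity of the material was checked with marker genes. Of 19 colonocyte and epithelial markers, 18 were in the table and all 18 lay above the floor, with summed signals of 122407 under PBS and 119618 under MIF. Among the 18, 12 were below 0 and 6 above, against 53.2% and 46.8% of all assessed genes. Ms4a10 was the 1 of 18 past 1.2-fold, against 6.29% of all assessed genes on the lower side. It was at 830 and 597, a log2 difference of -0.48, and Krt19 was next at -0.23. Of the 8 adipocyte markers, which bear on Pparg, the 2 in the table did not reach the floor on either array. Of 13 myeloid markers, 11 were in the table and 2 were assessed, Cd14 and Lyz2, and the summed signal of the 11 was 2191 and 2290.4. Cd14 made up most of that sum at 1318 and 1307, and Lyz2 was under the floor on the PBS array. Of 8 hepatocyte markers, 4 were in the table, summing to 1308 and 1722, and Ttr, which endocrine cells also express, made up most of that sum at 857 and 1249.9. Cps1, also assessed, was at 228 and 262, under the floor on the PBS array. The sums for lymphocytes and for stromal cells differed more between the arrays than the signal of any receptor. The 6 lymphocyte markers in the table, of 11 listed, summed to 1540.1 under PBS and 786 under MIF. The 2 above the floor, Gzma at 813 and 403 and Gzmb at 541 and 282, made up most of both sums. The other 4, Cd3g, Cd8a, Nkg7 and Jchain, were under the floor on both arrays. The 9 fibroblast, muscle and endothelial markers in the table, of 13 listed, summed to 874 and 2082, led by Dcn and Col3a1. No marker in the table had a signal of exactly 0. The part of such cells in the receptor values below was not tested.

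**Figure D1:**
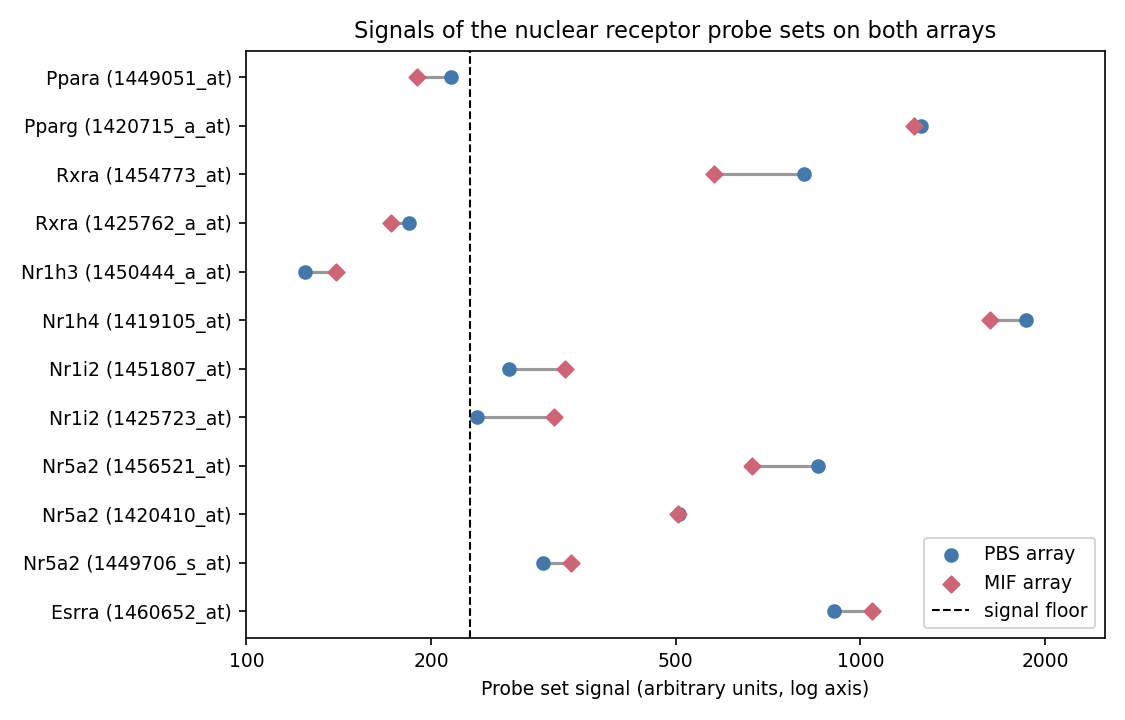
Signals of the 12 probe sets of the 8 receptors in the table, on a log axis in arbitrary units, with the PBS array as circles, the MIF array as diamonds and the signal floor of 232 as a dashed line. The widest separations are those of Rxra (810.3 and 578), of the first Nr5a2 probe set (853 and 666) and of both Nr1i2 probe sets. The symbols of the second Nr5a2 probe set (506 and 505) and of Pparg nearly coincide.

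The receptors did not differ in a common direction. Rxra and Nr5a2 were lower on the MIF array by more than 1.2-fold, Nr1i2 was higher by more than 1.2-fold, and Nr1h4, Pparg and Esrra lay within 1.2-fold. None of these 6 reached 1.5-fold. Of the 6 assessed receptors, 1 was past 1.2-fold on the higher side, against 6.82% of all assessed genes, and 2 on the lower side, against 6.29%. Over all assessed genes 398 were higher and 367 lower past 1.2-fold, and this balance turned to 300 and 519 with the arrays centred on their medians. At 1.5-fold the share of all assessed genes was 0.634% higher and 0.462% lower, or 37 and 27 genes, which became 28 and 32 with that centring. The median over the 6 receptors was -0.12, with values from -0.49 to 0.30. In a bulk preparation a lower signal from fewer cells of a type cannot be told apart from less RNA per cell.

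Rxra, a shared dimerisation partner of the PPAR, LXR, FXR and PXR proteins, had the largest difference of the 6 assessed receptors. Its brighter probe set, 1454773_at, had a signal of 810.3 under PBS and 578 under MIF. The MIF signal was 1.40-fold lower, a log2 difference of -0.49. Among all assessed genes, 2.29% lay at least as far from 0, and among genes in the same quartile of signal 3.01% did. A second probe set, 1425762_a_at, was at 184 and 172, under the floor on both arrays, so the difference of Rxra rests on 1 probe set. Rxrb, which encodes another RXR, had nearly equal signals of 523 and 501, a log2 difference of -0.06. Rxrg, the remaining RXR gene, was not analysed here.

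Nr5a2, which supports crypt cell renewal and local steroid production in the gut, gave different answers on its 3 probe sets. The brightest, 1456521_at, had a signal of 853 under PBS and 666 under MIF, a log2 difference of -0.36 or 1.28-fold lower. The next, 1420410_at, was at 506 and 505, a log2 difference of -0.0021. The third, 1449706_s_at, was at 304 and 337, which is 0.15 higher, and its name marks it as able to detect related transcripts. Its probe sets thus spanned 0.50 on the log2 scale. Of 554 genes with at least 3 probe sets above the floor, 48 (8.66%) spanned as much, and the median span was 0.23. With the probe sets averaged, the Nr5a2 difference was -0.07, so its difference past 1.2-fold rested on the brightest probe set.

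Nr1i2, the receptor that many drugs and microbial indoles activate, was higher on both of its probe sets. The first, 1451807_at, had a signal of 268 under PBS and 331 under MIF, 1.23-fold higher. The second, 1425723_at, was at 238 and 317, 1.33-fold higher. Each probe set was thus higher on the MIF array, although all 4 signals lay near the floor of 232. The log2 differences were 0.30 and 0.41. Of 193 genes whose first probe set was past 1.2-fold and that had a second, the second had the same sign for 163 (84.5%) and was itself past 1.2-fold in that direction for 75 (38.9%). In the lowest quartile of signal, where Nr1i2 lies, 12.5% of genes were at least as far from 0. With quantile normalization the Nr1i2 difference was 0.26, just within 1.2-fold.

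**Figure D2:**
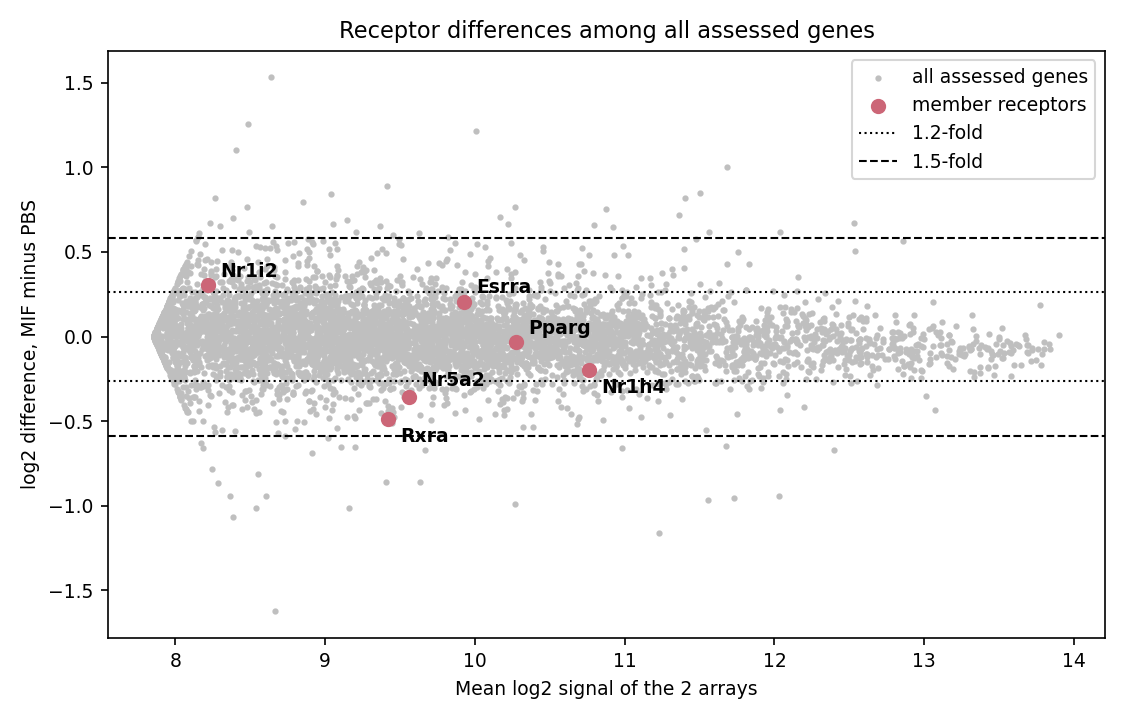
The log2 difference (MIF minus PBS) of each of 5839 assessed genes, in grey, against its mean log2 signal over both arrays, with the 6 assessed receptors in red and dotted and dashed lines at 1.2-fold and 1.5-fold. Rxra (-0.49) and Nr5a2 (-0.36) lie below the lower dotted line, Nr1i2 (0.30) lies above the upper one at low signal, and Esrra, Pparg and Nr1h4 lie within the grey band.

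Nr1h4, the bile acid receptor, was measured by 1 probe set, 1419105_at, with a signal of 1859.6 under PBS and 1624 under MIF. It was 1.15-fold lower, a log2 difference of -0.20, and 23.7% of assessed genes lay at least as far from 0. Esrra, which drives genes of mitochondrial respiration, went the other way by a like amount. Its probe set 1460652_at was at 905 and 1044, 1.15-fold higher or 0.21 on the log2 scale, and 21.6% of assessed genes lay at least as far from 0. Pparg, a PPAR well known in colonocytes, had the smallest difference of the 6. Its probe set 1420715_a_at was at 1254 and 1224, 1.02-fold lower, and 82.9% of assessed genes lay at least as far from 0. These 3 differences were of the size that many genes showed.

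Ppara, the receptor of fasting and fatty acid oxidation, and Nr1h3, the LXR alpha gene, gave signals too low to assess. Ppara (1449051_at) was at 215 under PBS and 189.7 under MIF, and Nr1h3 (1450444_a_at) was at 125 and 139.97. Both could be read once the floor was lowered to the 20th percentile, at log2 differences of -0.18 and 0.17, within 1.2-fold. A signal under the floor does not show that the gene was not expressed.

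The promoters of the 3 receptors past 1.2-fold are shown because the array does not say from which start their transcripts came, and Rxra and Nr5a2 each have 2 starts in the RefSeq table. Sequences are the 250 bases before each start, from RefSeq on the build GRCm38.p6, written 5′ to 3′ on the gene's strand. Capitals mark the hexamer AGGTCA, the core that most nuclear receptors bind, or its reverse complement TGACCT.
Rxra first start, chr2:27676951-27677200 on the plus strand: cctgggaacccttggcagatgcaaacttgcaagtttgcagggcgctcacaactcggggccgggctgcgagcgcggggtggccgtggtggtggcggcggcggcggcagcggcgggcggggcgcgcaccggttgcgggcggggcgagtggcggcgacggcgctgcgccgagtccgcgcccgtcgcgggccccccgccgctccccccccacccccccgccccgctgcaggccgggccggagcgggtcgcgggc
Rxra second start, chr2:27709042-27709291 on the plus strand: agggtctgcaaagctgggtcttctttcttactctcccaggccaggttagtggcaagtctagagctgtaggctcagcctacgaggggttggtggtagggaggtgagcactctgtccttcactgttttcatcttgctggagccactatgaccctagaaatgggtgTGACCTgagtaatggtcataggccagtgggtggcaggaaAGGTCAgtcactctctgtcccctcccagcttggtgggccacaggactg
Nr5a2 first start, chr1:136960449-136960698 on the minus strand: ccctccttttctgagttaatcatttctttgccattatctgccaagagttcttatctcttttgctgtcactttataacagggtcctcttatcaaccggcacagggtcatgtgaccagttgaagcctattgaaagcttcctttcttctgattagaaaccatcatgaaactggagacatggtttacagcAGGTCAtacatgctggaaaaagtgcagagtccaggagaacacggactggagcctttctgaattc
Nr5a2 second start, chr1:136953631-136953880 on the minus strand: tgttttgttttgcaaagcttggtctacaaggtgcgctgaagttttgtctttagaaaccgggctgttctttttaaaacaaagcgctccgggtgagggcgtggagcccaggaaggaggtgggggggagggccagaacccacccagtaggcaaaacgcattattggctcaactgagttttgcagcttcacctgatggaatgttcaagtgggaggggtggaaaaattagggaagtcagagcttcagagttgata
Nr1i2, chr16:38294825-38295074 on the minus strand: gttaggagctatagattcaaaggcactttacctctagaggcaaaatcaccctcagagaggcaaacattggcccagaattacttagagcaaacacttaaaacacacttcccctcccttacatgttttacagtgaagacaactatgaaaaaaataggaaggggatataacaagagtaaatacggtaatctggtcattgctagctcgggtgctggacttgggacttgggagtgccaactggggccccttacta

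All 10 receptor genes matched the RefSeq promoter table, with 15 starts. The hexamer, searched on both strands, was found before 5 of these 15 starts, in the genes Rxra, Nr5a2, Pparg and Nr1h4, against 14.0% of 32851 promoter windows of equal length. The second Rxra start had it at 87 to 82 bases before the start as TGACCT and at 48 to 43 bases as AGGTCA, and the first Nr5a2 start at 64 to 59 bases. The Nr1i2 window did not hold these letters. The G and C content was 81.2% before the first Rxra start and 55.2% before the second, 43.2% and 49.6% before the Nr5a2 starts and 44.0% before that of Nr1i2, where the median of all windows was 52.4%. Longer elements that join hexamers or extend them were also searched on both strands. These were AGGTCANAGGTCA, the direct repeat of PPAR and RXR dimers, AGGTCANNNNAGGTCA, the repeat of LXR dimers, AGGTCANTGACCT, the inverted repeat of FXR dimers, and the single-molecule forms TCAAGGTCA and TCAAGGCCA. Each contains or resembles the hexamer, so the searches overlap. The receptor windows held none of them, and of all windows 0.0335%, 0.0152%, 0.00609%, 0.387% and 0.511% did. A match of letters describes the sequence and does not show binding.

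The other nuclear receptors were listed with 38 genes, of which 19 were in the table and 11 were assessed. Their median log2 difference was 0.03, with 7 above 0 and 4 below, against 46.8% and 53.2% of all assessed genes. The median was -0.0069 with the arrays centred on their medians and -0.0058 with quantile normalization. It was -0.04 when the floor stood at the 60th percentile. Nr1d1, the circadian repressor REV-ERB alpha, was the 1 gene of the list past 1.2-fold, at 353 under PBS and 463 under MIF, 1.31-fold higher, so 1 of 11 was past it against 6.82% of all assessed genes. Nr4a1, an immediate early gene, was at 599 and 705, a log2 difference of 0.24. Vdr, the vitamin D receptor and another RXR partner, was at 1977 and 1754, a difference of -0.17, and its second probe set gave -0.16. Hnf4a, the receptor that maintains enterocyte identity, was at 5672 and 5367 on its brightest probe set, a difference of -0.08, whereas its other 3 probe sets gave 0.20, 0.35 and 0.22. Its direction therefore depended on the probe set. The related Hnf4g was at 247 and 283, a difference of 0.20.

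Coregulators, the proteins that receptors recruit to open or close chromatin, were listed with 23 genes, of which 19 were in the table and 15 were assessed. The median was 0.05, with 8 above 0 and 7 below, against 46.8% and 53.2% of all assessed genes. None was past 1.2-fold on the higher side and 2 of 15 were on the lower, against 6.82% and 6.29%. The 2 past 1.2-fold on the lower side were Pprc1, a PGC-1 family coactivator, at 409.8 and 322, a difference of -0.35, and the coactivator Ncoa1 at 1415 and 1166, a difference of -0.28. The second Ncoa1 probe set gave 0.03. Ppargc1b, the PGC-1 beta coactivator of ERR alpha, was at 2182 and 2464, a difference of 0.18. Ppargc1a, its PGC-1 alpha relative, was at 295 and 313, near the floor, a difference of 0.09. The other Ppargc1a probe sets were under the floor on both arrays.

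**Figure D3:**
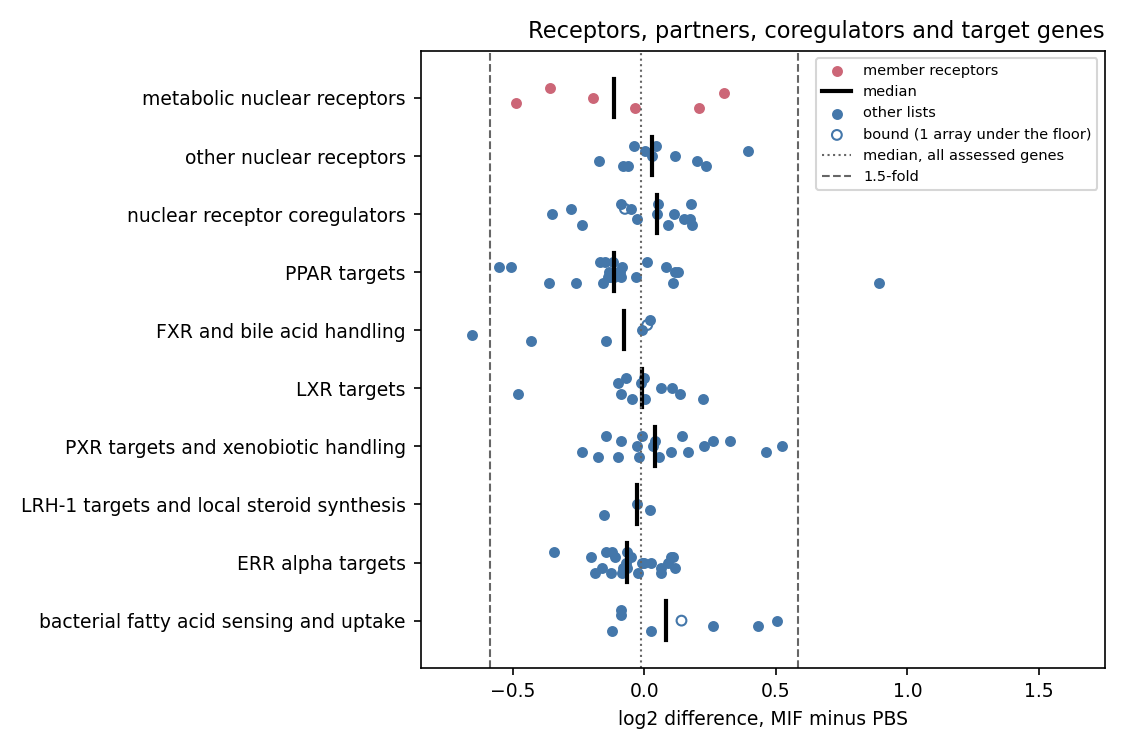
The log2 difference (MIF minus PBS) of every assessed gene in the receptor list and in each list of partners, coregulators, targets and related genes, with a black bar at the list's median, open circles for bounds, a dotted line at the median of all assessed genes (-0.01) and dashed lines at 1.5-fold. The PPAR targets cluster just below 0 with Pck1 alone at 0.89, and Fabp6 (-0.65) is the 1 other gene beyond a dashed line.

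Known targets of the receptors were then read from the same arrays. PPAR targets, mostly enzymes of fatty acid oxidation and lipid storage, were listed with 45 genes, of which 32 were in the table and 23 were assessed. Their median was -0.12, with 17 below 0 and 6 above, where 53.2% of all assessed genes lay below 0 and 46.8% above. The median ranged from -0.15 to -0.10 over the settings tried. The 3 past 1.2-fold on the lower side were Crat, the carnitine acetyltransferase, Acaa1a, a peroxisomal thiolase, and Eci1, an enoyl-CoA isomerase, and 1 of the 23 was past it on the higher side. Of all assessed genes, 6.29% and 6.82% were past 1.2-fold on these sides. Crat was at 385 under PBS and 262 under MIF, a difference of -0.55. Acaa1a differed by -0.51 and Eci1 by -0.36, and these were named after their values were seen. Plin2, the lipid droplet coat protein, was at 1865 and 1697, a difference of -0.14.

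Pck1 and Cpt1a were among the 6 PPAR targets above 0. Pck1, the committing enzyme of gluconeogenesis and glyceroneogenesis, was at 501 and 928, 1.85-fold higher. Its second probe set was under the floor on both arrays. Cpt1a, which admits long-chain fatty acids to mitochondria, was at 2131 and 2300.5 on its brightest probe set, a difference of 0.11. Another of its probe sets, 1434866_x_at, was at 757 and 1418, a difference of 0.91, and may detect other transcripts. The remaining probe set gave a bound of 0.07. Pdk4 and Angptl4, sensitive PPAR targets in other tissues, were under the floor on both arrays, at 62.7 and 79.96 and at 8.71 and 3.90.

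Genes of bile acid handling, the field of FXR, were listed with 19 genes, of which 12 were in the table and 6 were assessed. Both genes past 1.2-fold were lower on the MIF array, 2 of 6, where 6.29% of all assessed genes were past it on the lower side and 6.82% on the higher. Fabp6, the ileal bile acid-binding protein and an FXR target, was at 691 under PBS and 439 under MIF, 1.57-fold lower. Slc51a, a subunit of the basolateral bile acid exporter and also an FXR target, was at 1376 and 1023, 1.35-fold lower, on a probe set that can detect related transcripts. The median of the 6 was -0.08, and it was 0.02 with a floor at the 20th percentile and 0.0025 without a floor. Fgf15 and Slc51b, 2 further FXR targets, were not analysed here. Fabp6 also marks small intestine. Of 11 small intestinal markers, 5 were in the table and 3 were assessed. The others assessed, Apob and Slc5a1, differed by 0.03 and 0.08, and the second Slc5a1 probe set gave 0.25. Apob was named after its value was seen. Whether a difference in the region of gut sampled contributed was not tested.

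LXR targets, for sterol export and fat synthesis, were listed with 24 genes, of which 19 were in the table and 12 were assessed. The median was -0.0073, and 0.06 without a floor. Scd1, the stearoyl-CoA desaturase, was at 617 under PBS and 442 under MIF, a difference of -0.48, and was the 1 gene of 12 past 1.2-fold, against 6.29% of all assessed genes on that side. Srebf1, the master regulator of fat synthesis, was at 699 and 817, a difference of 0.22. The cholesterol exporters Abca1 and Abcg5 were under the floor on both arrays, at 58.7 and 86.8 and at 64.9 and 73.9.

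PXR targets and other genes of xenobiotic handling were listed with 36 genes, of which 20 were in the table and 19 were assessed. The 3 past 1.2-fold were all higher on the MIF array, 3 of 19, where the shares over all assessed genes were 6.82% higher and 6.29% lower. The median was 0.04, with 11 above 0 and 8 below, against 46.8% and 53.2% of all assessed genes. Abcb1a, the P-glycoprotein drug exporter, was at 1288 under PBS and 1616 under MIF, a difference of 0.33, and its second probe set gave 0.36. Aldh1a7, an aldehyde dehydrogenase, was at 323 and 465, a difference of 0.52. Gstt1, a glutathione transferase, was at 405 and 558, a difference of 0.46. Cyp3a13, a cytochrome P450 of the gut, was at 669 and 624, a difference of -0.10. Cyp3a11, the classical PXR target of liver, was not analysed here.

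Targets of LRH-1 and genes of local steroid synthesis were listed with 16 genes, of which 9 were in the table and 3 were assessed. None was past 1.2-fold on its brightest probe set. The median was -0.03, and -0.15 with the probe sets averaged. Hsd3b3, a steroid dehydrogenase, was at 876 and 788, a difference of -0.15 on a probe set that may detect its close relatives. Hsd11b2, which inactivates glucocorticoids in colonocytes, was at 3747 and 3808, a difference of 0.02. Ccnd1, the cyclin D1 gene, was at 2603 and 2551, a difference of -0.03 on its brightest probe set. Its other probe sets gave -0.28 and -0.35, each past 1.2-fold on the lower side, so its place relative to 1.2-fold depended on the probe set. The initiating enzyme gene Cyp11a1 was not analysed here.

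Targets of ERR alpha, which encode the respiratory chain and the citric acid cycle, were listed with 28 genes, of which 25 were in the table and 24 were assessed. The median was -0.07, with 16 below 0 and 8 above, where 53.2% of all assessed genes lay below 0 and 46.8% above. The median over all genes in the highest quartile of signal was -0.04. With a trend of the difference on signal removed, the median of the list was -0.0044. Ndufb7, a subunit of respiratory complex I, was the 1 gene of 24 past 1.2-fold, against 6.29% of all assessed genes, at 4884 under PBS and 3849 under MIF, a difference of -0.34, and its second probe set gave -0.29. Cox5b, a subunit of cytochrome oxidase, differed by -0.20, and its other probe sets by -0.16, -0.16 and -0.07. Cycs, the cytochrome c gene, differed by -0.09, and Idh3a, of the citric acid cycle, by 0.11, with 0.19 and 0.18 on its other probe sets. Esrra itself was higher by 0.21.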

How the data were processed

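Trizol-extracted total RNA was made into biotinylated cRNA by the Affymetrix protocol, per the labels. The deposited values are the authors' processed probe set intensity on a linear scale, read as such from the values. How probes were summarised, corrected for background and scaled, and how probe sets were chosen, is not given in the sources used here.

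Of 15340 probe sets, 61 controls were left out. Through GEO's platform annotation, which can be old, 14049 had 1 symbol, 490 several and 740 none. For 14034 of these, the Entrez ID matched a RefSeq gene of GRCm38.p6, and its RefSeq name was used, whether or not it differed from the platform symbol. Column medians were 337 and 346, so the columns were used as deposited. Signals were raised to the floor of 232, and a gene was represented by its brightest probe set. With 1 array under the floor (296 genes), a difference is a bound. No test, SD between samples or p-value was possible. The number of arrays limits the precision.

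The receptors and gene lists were chosen with earlier results of these data known, and some lists share genes. Named genes are all receptors, best-known targets and partners taken regardless of value, the 2 largest differences of each list and any past 1.5-fold. The alternatives were median centring, quantile normalization, loess removal of a trend (span 0.3), floors at the 20th or 60th percentile or none, averaged probe sets, and no _x_at or _s_at probe sets. Steps were tested on simulated data, with differences planted in genes well above the floor and scored at 1.5-fold. That check did not cover calls at 1.2-fold or signals near the floor. The work used Python 3.11.15 with matplotlib 3.10.9, numpy 2.4.6, statsmodels 0.14.6 and pandas 2.3.3.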

Additional observations from a re-analysis of the deposited data

How the results depend on the processing

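Over the 8 alternatives, the log2 difference of Rxra ranged from -0.52 to -0.49, of Nr1h4 from -0.23 to -0.18, of Pparg from -0.07 to -0.03 and of Esrra from 0.17 to 0.21, with no change of sign. Nr1i2 ranged from 0.26 to 0.36 over the settings that could assess it, and no receptor was past 1.2-fold on the higher side with quantile normalization (0 receptors) or when the floor stood at the 60th percentile (0 receptors), where Nr1i2 was under the floor. Nr5a2 ranged from -0.39 to -0.07, and with averaged probe sets 1 receptor, Rxra, was past 1.2-fold on the lower side. The receptors assessed numbered 8 with the floor at the 20th percentile or none and 5 at the 60th. Counts over all genes moved by over 1.5 times with the floor. Past 1.2-fold, 398 genes were higher and 367 lower, and these became 748 and 558 for a floor set at the 20th percentile, 198 and 220 for the 60th, and 1359 and 899 without any floor. Scaling turned the balance, to 300 higher and 519 lower with median centring, 349 and 425 with quantile normalization and 359 and 405 with the loess trend removed. Past 1.5-fold, 37 were higher and 27 lower. Lowering the floor to the 20th percentile gave 98 and 49, and raising it to the 60th gave 19 and 12. Without any floor, 455 were higher and 198 lower. The medians of the target lists moved by less than the SD between probe sets of 0.13 in each alternative that could be computed. The median of LRH-1 targets ranged from -0.15, with averaged probe sets, to 0.0014, with quantile normalization. It was not computed without _x_at and _s_at probe sets, where fewer than 3 genes were left. No paired analysis was possible because each condition has 1 array. Signal near the floor limits what can be read of Ppara, Nr1h3, Nr1i2 and the cholesterol exporters.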

Other observations

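Colonocytes live largely on butyrate made by bacteria, a fuel whose oxidation PPAR gamma is known to support. Of 10 genes listed for the uptake, sensing and activation of such fatty acids, 8 were in the table and assessed. Their median log2 difference was 0.08, with 5 above 0 and 3 below, against 46.8% and 53.2% of all assessed genes. Acsm3, a medium-chain acyl-CoA synthetase, was at 1178 under PBS and 1672 under MIF, 1.42-fold higher. Acss2, the cytosolic acetyl-CoA synthetase, was at 1438 and 1939.9, a difference of 0.43, and its second probe set gave 0.41. Slc16a1, the main butyrate transporter, was at 7046 and 7166, a difference of 0.02. Slc5a8, also of this list, was at 3061 and 3668, a difference of 0.26, just within 1.2-fold. It was named after its value was seen. These 2 synthetase genes were the ones past 1.2-fold among the 8, where 6.82% of all assessed genes were past it on the higher side.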
